A study of Mus musculus with 2 samples.

Results

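The interferon regulatory factor (IRF) genes Irf1, Irf2, Irf3, Irf4, Irf5, Irf7, Irf8 and Irf9 were examined in a genome-wide map of Sox4 on chromatin. These 8 genes were taken by symbol from the list of genes deposited with each peak, out of 20953 protein-coding genes considered in all. A gene enters that list when a peak lies inside it or within 25 kb of either end, and 6 of the 8 were listed, for 13 of the 8730 peaks. The cells were C57BL/6 mouse progenitor B cells derived from fetal liver of embryos. Retroviruses had brought in BirA (a biotin ligase), p190 Bcr-Abl (an oncogenic kinase), a construct labelled SE-Cre and BAP-Sox4 (Sox4 with a tag for biotin), and cells were sorted after every step. The series comprises 1 Sox4 bioChIP library, in which chromatin was pulled down on streptavidin beads, and 1 input chromatin library. Both came from the same immortalized, transduced cells, which limits them as a model of primary progenitors, and a pull-down from cells without tagged Sox4 was not analysed here. Only the peak list of the bioChIP library was used, so no value has a replicate check and no test between conditions was possible.

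IRF proteins are transcription factors that share an amino-terminal DNA-binding domain with conserved tryptophans and read GAAA repeats, the core of the interferon-stimulated response element. Some of them act in the interferon response: Irf3, Irf5 and Irf7 are switched on by sensors of microbial nucleic acid, and Irf9 joins STAT factors downstream of the type I interferon receptor. Irf4 and Irf8 work mainly in immune cells, often beside the ETS factor PU.1, and in progenitor B cells they promote light-chain rearrangement and the exit from the cycling pre-B stage. Sox4 is an HMG-box factor required for early B-cell development.

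Sox4 peaks covered the start of Irf1 and of Irf2, lay inside or just past Irf8 but away from its start, and none was called over the starts or bodies of the other 5 genes. A promoter peak, meaning a peak interval within 5 kb of a transcription start site (TSS), was thus present at 2 of the 8 genes (25%, exact Clopper-Pearson 95% interval 3.19 to 65.1%), beside 32.8% of all protein-coding genes. The same 2 genes had a peak within 1 kb, beside 30.2% of all genes, and over the TSS itself, beside 28.4% of all genes. A gene-body peak, overlapping the gene or a 10 kb flank, was present at 3 of the 8 (37.5%, 8.52 to 75.5%), beside 40.8% of all genes. Listing within 25 kb reached 6 of the 8 (75%, 34.9 to 96.8%), beside 48.9% of all genes. Each of these intervals contains the share over all genes, so at this number of genes no difference from genes at large was detectable.

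**Figure D1:**
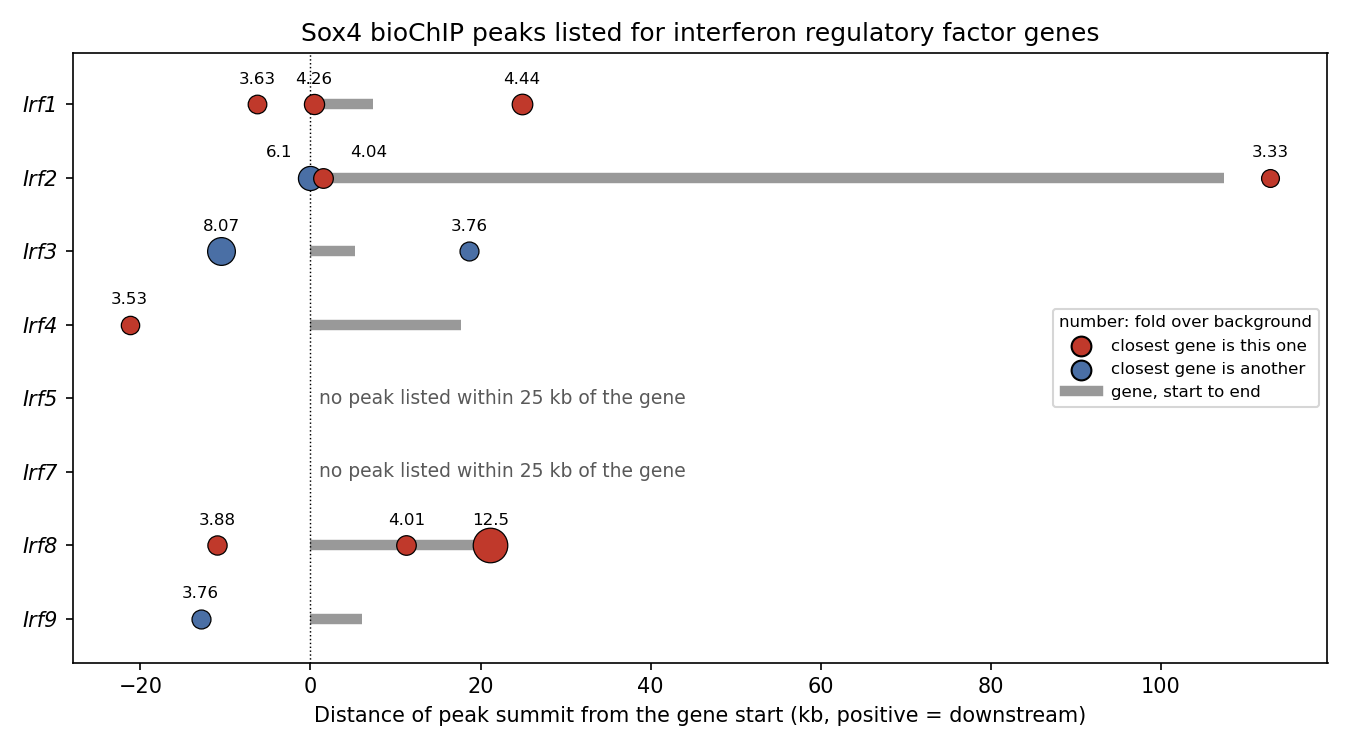
Sox4 bioChIP peaks listed for each gene. The x axis gives the distance in kb from the gene's TSS to the peak summit, marker area follows the fold over background printed above it, colour shows whether the gene or another one is the closest, and the grey bar is the transcript. Peaks stand at the start of Irf1 and Irf2 only, the highest fold, 12.5, is just past the end of Irf8, and Irf5 and Irf7 have none.

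Irf1 encodes an activator of interferon-responsive and growth-restraining genes, and its start was covered by a peak. This peak (chromosome 11, 53583105 to 53584357, mm9) held 106 tags, with an exact Poisson 95% interval of 86.8 to 128. It was 4.26-fold over the background expected by the peak caller and scored 164, the score being minus 10 log10 of the caller's p-value. By score it ranked 2418 of 8730, while its fold exceeded that of 43.7% of all peaks. The file annotates Irf1 transcripts from 2 starts, and the distances it gives place them 459 bp apart. The summit lay 385 bp past the first (NM_008390 and NM_001159393) and 74 bp before the second (NM_001159396). A further peak ended 5816 bp upstream of the first TSS, with 80 tags (63.4 to 99.6), 3.63-fold enrichment and score 116. Another lay 16139 bp past the most distal Irf1 end, in the downstream class, with 84 tags (67.0 to 104), 4.44-fold enrichment and score 122. The tag intervals of these 3 Irf1 peaks overlap, and for each of them the file names Irf1 as the closest gene. The downstream peak was also listed for the noncoding transcript Gm12216. It lay inside that transcript, 63549 bp from its TSS and 9024 bp before its end.

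Irf2 encodes a relative of Irf1 best known for repressing the same elements, and it had a pair of peaks at its start. The first (chromosome 8, 47824432 to 47825400, mm9) covered the TSS of NM_008391 with its summit 31 bp upstream of it. With 83 tags (66.1 to 103) it was enriched 6.10-fold and scored 184, above 77.0% of all peaks by score and above 83.1% by fold. The same interval covered the start of the noncoding transcript Gm16675, which the file names as closest. The second peak began 886 bp inside Irf2, in the intron class, with 76 tags (59.9 to 95.1), 4.04-fold enrichment and score 101. A weak peak lay 4759 bp past the end of this long gene, 112472 bp from the TSS, with 51 tags (38.0 to 67.1), 3.33-fold enrichment and score 51.6, close to the lowest score in the list (50.03).

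The promoter sequences at the covered Irf1 and Irf2 starts are shown because, by the deposited distances, the peaks span them in full. They run from 250 bases before the start to 50 after it, were taken from RefSeq on GRCm38.p6 (plus strand), and are written 5′ to 3′. For the first Irf1 start (chr11:53769764-53770063) and for Irf2 (chr8:46739495-46739794), capitals mark matches to the STAT-type element TTCNNNGAA and to the IRF element, GAAA followed by 2 bases of any kind and GAAA again. For the second Irf1 start (chr11:53770223-53770522), the one nearer the summit, they mark the GC box GGGCGG on either strand.
Irf1, first start: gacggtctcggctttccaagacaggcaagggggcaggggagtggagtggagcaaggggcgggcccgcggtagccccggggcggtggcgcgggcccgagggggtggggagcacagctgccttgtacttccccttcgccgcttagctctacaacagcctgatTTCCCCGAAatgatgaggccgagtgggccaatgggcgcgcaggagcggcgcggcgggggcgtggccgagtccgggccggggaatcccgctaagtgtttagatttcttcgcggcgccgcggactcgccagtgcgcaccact
Irf1, second start: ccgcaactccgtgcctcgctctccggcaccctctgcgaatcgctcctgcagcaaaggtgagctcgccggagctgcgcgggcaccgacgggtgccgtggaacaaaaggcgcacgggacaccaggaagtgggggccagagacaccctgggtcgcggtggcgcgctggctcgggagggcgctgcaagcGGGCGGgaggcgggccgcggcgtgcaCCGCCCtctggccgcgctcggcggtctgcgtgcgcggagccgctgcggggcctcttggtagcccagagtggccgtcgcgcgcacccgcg
Irf2: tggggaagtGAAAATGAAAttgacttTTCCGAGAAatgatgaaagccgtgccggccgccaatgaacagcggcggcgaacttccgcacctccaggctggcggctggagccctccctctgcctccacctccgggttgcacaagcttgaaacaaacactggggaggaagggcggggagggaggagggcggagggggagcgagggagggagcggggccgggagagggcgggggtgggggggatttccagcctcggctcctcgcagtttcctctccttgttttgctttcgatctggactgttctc

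The first Irf1 promoter held a STAT-type match, TTCCCCGAA, at positions -90 to -82, with the TSS counted as 0. The Irf2 promoter held 1 IRF element, GAAAATGAAA, at positions -241 to -232, followed by a STAT-type match, TTCCGAGAA, at -224 to -216. These matches do not overlap each other. Among 32851 RefSeq promoters of the same length, 3.44% held the IRF element and 8.3% the STAT-type element on either strand. GC boxes, found in 35.7% of all promoters, occurred 2 times in each Irf1 promoter and 3 times in that of Irf2. Neither SOX core searched, ACAAAG (18.7% of all promoters) or ACAATG (12.6%), was present in these 3 windows on either strand. The ETS core CCGGAA (14.9%) was absent as well, and other forms of ETS element were not searched. A match is a description of the letters and not a binding site, and the rest of each peak was not searched because no genome of its build was used here.

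Irf8 encodes a factor of B-lymphoid and myeloid development, and its peaks avoided the start. The highest (chromosome 8, 123280981 to 123281918, mm9) began 390 bp past the end of NM_008320 and 20706 bp from its TSS. It held 128 tags (107 to 152), was enriched 12.5-fold and scored 443. Among the 204 peaks of the gene-end class its fold ranked 4 and its score 6, against a class median fold of 4.08. Of 53 protein-coding genes with an own gene-end peak at or within 1 kb past their end, 2 reached the fold of Irf8, itself included. A peak 10880 bp inside the gene, in the exon class, had 54 tags (40.6 to 70.5), 4.01-fold enrichment and score 73.0. Another ended 10561 bp upstream of the TSS, also with 54 tags, enriched 3.88-fold and scoring 53.1. The gene-end peak held 137 tags per kb of its width, against 70.5 at the exon peak and 71.9 at the upstream one, and its tag interval does not overlap theirs. This comparison covers counting error within the 1 library only. Beyond these 3 peaks no other peak was near: the next lay 135 kb away on one side, at Gins2, and 132 kb away on the other, with no gene listed. Of the 20953 genes, 220 had 3 or more peaks within the listing range for which they were the closest gene, and 15 of those, Irf8 among them, lacked a promoter peak.

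Irf4 encodes the closest relative of Irf8, and only a distal peak was assigned to it. This peak (chromosome 13, 30819505 to 30820601, mm9) ended 20526 bp upstream of the TSS of NM_013674. Its 76 tags (59.9 to 95.1) gave 3.53-fold enrichment with score 101, and its fold exceeded that of 16.2% of all peaks. In the upstream class of 471 peaks it ranked 385 by fold. The peak was also listed for Dusp22, a phosphatase gene, at 16412 bp past its end. The neighbouring peaks were those at the starts of Dusp22, 67.4 kb away with a fold of 2.77, and Exoc2, 245 kb away with a fold of 4.0.

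Irf9 encodes a DNA-binding subunit of the complex with STAT factors that type I interferon assembles, and its listed peak belonged to other genes. The interval (chromosome 14, 56209537 to 56210810, mm9) covered the starts of Psme2, a proteasome activator subunit, and of Rnf31, a subunit of the linear ubiquitin ligase. It lay 12012 bp upstream of the nearest Irf9 TSS, with 101 tags (82.3 to 123), 3.76-fold enrichment and score 130. The next peak beyond Irf9 was 51.2 kb further on, at Tm9sf1, so no peak was called over the Irf9 gene or its start.

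Irf3, Irf5 and Irf7, the factors activated by nucleic-acid sensing, had no gene-body peak. Irf3 was listed for a strong interval (chromosome 7, 52240811 to 52243003, mm9) that covered the starts of the arginine methyltransferase gene Prmt1 and of the noncoding Gm15545. That peak, with 243 tags (213 to 276), 8.07-fold enrichment and score 552, ended 10015 bp upstream of the Irf3 TSS (NM_016849), which is just outside the 10 kb limit. On its other side, Irf3 was listed for the peak at the start of Scaf1, an RNA-processing gene, 12725 bp past the Irf3 end, with 94 tags (76.0 to 115) and a fold of 3.76. Irf5 and Irf7 were listed for no peak. For Irf5, one adjacent gene, Tnpo3, had a peak over its start with 80 tags and a fold of 4.99, and the other, Kcp, had none. For Irf7, the adjacent gene Phrf1 had a peak over its start with 110 tags and a fold of 3.83, and Cdhr5 had none.

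Of 16 genes next to the family, 8 had promoter peaks (50%, 24.7 to 75.3%), an interval that includes the 32.8% of all genes. Gene order was read from RefSeq on GRCm38.p6. They included Slc22a5 beside Irf1, Scaf1 beside Irf3, Dusp22 and Exoc2 on either side of Irf4, Tnpo3 beside Irf5, Phrf1 beside Irf7 and Rnf31 beside Irf9. Neither neighbour of Irf8, Cox4i1 or Foxf1, had one. In 5 of the 8 loci (Irf3, Irf4, Irf5, Irf7 and Irf9) an adjacent gene had a promoter peak while the family member had none (62.5%, 24.5 to 91.5%). The same held for 26.3% of all protein-coding genes, a share within that interval.

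In strength, the family's peaks were ordinary apart from a few. The 13 listed peaks had a median of 83 tags (range 51 to 243), a median fold of 4.01 (3.33 to 12.5) and a median score of 122 (51.6 to 552). Over all 8730 peaks the medians were 71 tags, 4.43-fold enrichment and score 105. For 9 of the 13 a family member was the closest gene, and these had medians of 76 tags, 4.01-fold enrichment and score 101. In the deposited promoter class were 5 of the 13 (38.5%) and 1 of these 9 (11.1%), the Irf1 peak, beside 74.9% of all peaks with a listed gene. Irf1, Irf2 and Irf8 had 3 listed peaks each, so the peaks are not independent and no interval is given. These shares describe the listed peaks and are not a test. The choice of closest peaks itself leaves out the other 4, whose closest genes were Gm16675, Gm15545, Scaf1 and Psme2. The other 8 of the 9 were 3 upstream, 2 gene-end, 1 intron, 1 exon and 1 downstream peak. The Irf2 start peak is not among the 9, since Gm16675 is named for it.

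**Figure D2:**
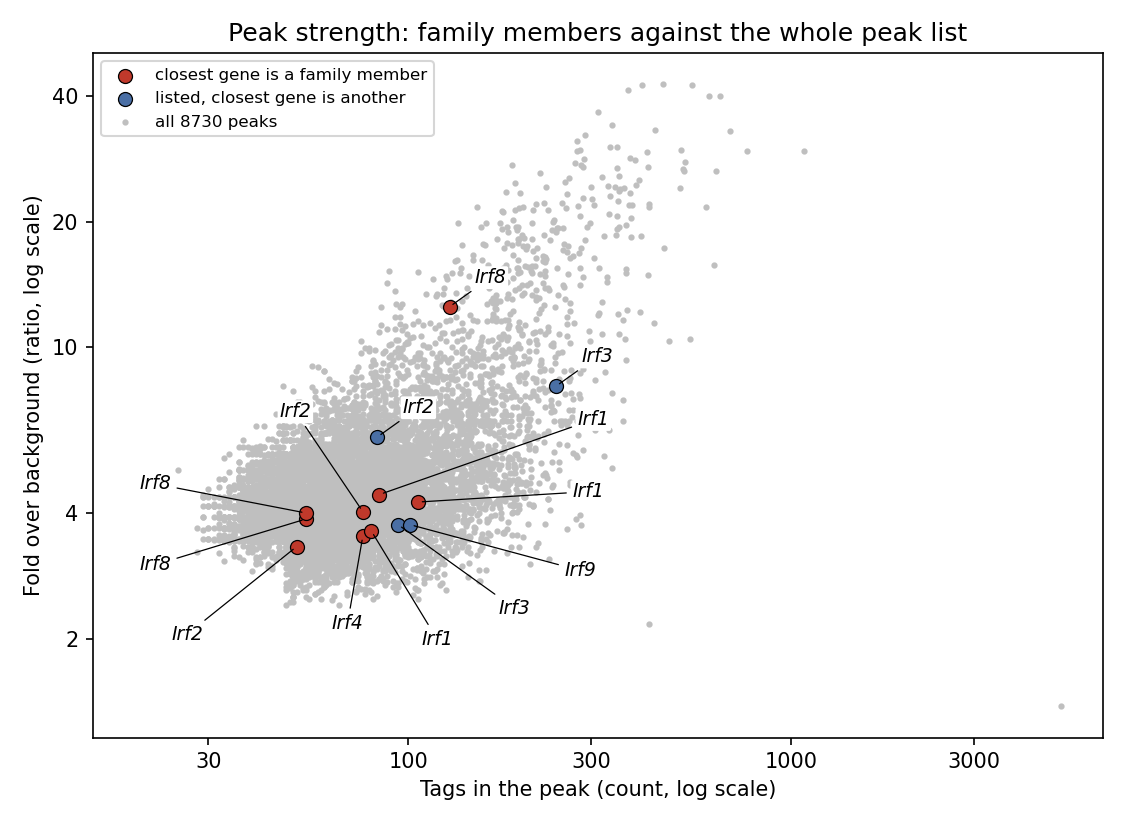
Tags per peak (x axis, count, log scale) against fold over background (y axis, ratio, log scale) for all 8730 peaks in grey and the 13 peaks listed for IRF genes in colour. The Irf8 gene-end peak (128 tags, fold 12.5) and the Prmt1 peak listed for Irf3 (243 tags, fold 8.07) stand in the upper part of the cloud, and 10 of the other 11 lie at folds between 3.33 and 4.44, the exception being the Irf2 start peak at 6.10.

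The covered starts were rich in CpG, and so were several without a peak. A promoter was called CpG-rich when it had at least 55% G and C and an observed-to-expected CpG ratio of at least 0.65, limits chosen after the peaks were seen. Among the 16783 protein-coding genes with a promoter sequence (80.1% of those considered), the TSS was covered at 53.9% of genes with a CpG-rich promoter and at 10.7% of the others. Irf1, Irf2, Irf3, Irf5 and Irf8 had a CpG-rich promoter, and 2 of these 5 starts were covered. Irf4, Irf7 and Irf9 had none, and 0 of these 3 starts were covered. Irf5 (74.7% G and C, ratio 0.89) and the first Irf8 promoter (70.0%, ratio 1.0) were as CpG-rich as the first Irf1 promoter (69.3%, ratio 0.91) and richer than that of Irf2 (62.7%, ratio 0.67), yet had no peak. RNA levels were not analysed here, so whether these genes were transcribed in the cells was not tested.

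**Figure D3:**
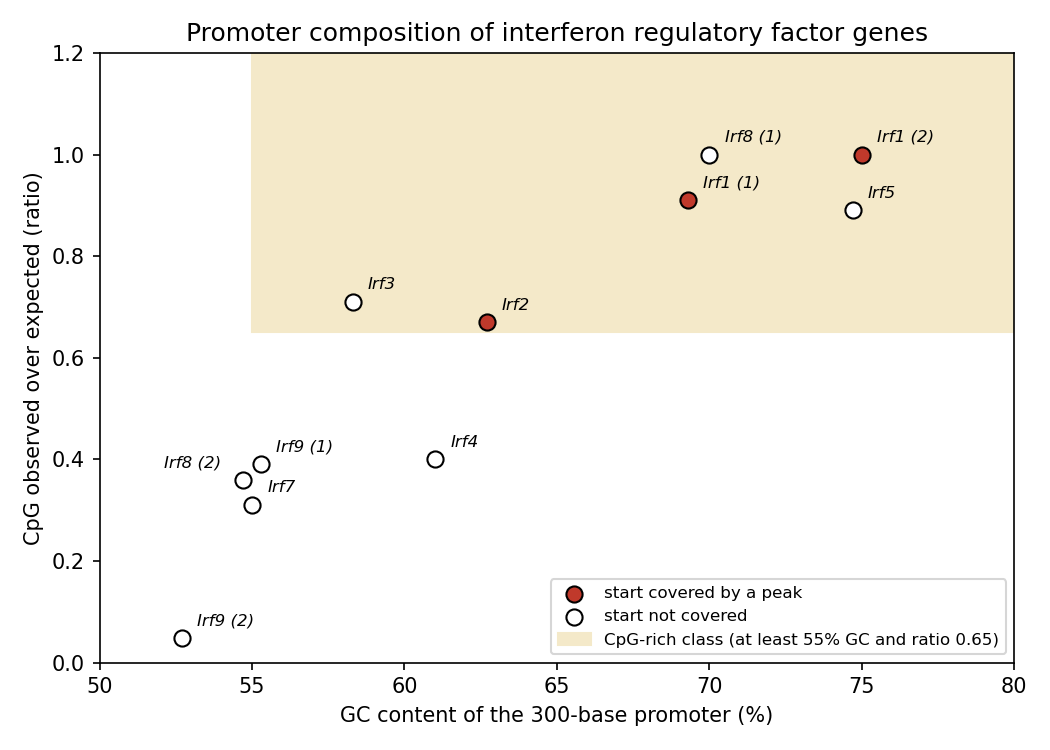
G and C content (x axis, %) and observed-to-expected CpG ratio (y axis) of the 11 RefSeq promoters of the 8 genes, each 300 bases long. Filled points are starts covered by a Sox4 peak, open points are not, and the shaded area is the CpG-rich class. The covered Irf1 and Irf2 promoters lie in the shaded area together with those of Irf3, Irf5 and the first of Irf8, which were not covered.

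Matches to the same elements also occurred at starts without a peak. The first Irf8 promoter (chr8:120736108-120736407, GRCm38.p6, plus strand) contained a pair of STAT-type matches, in capitals below. Of the 11 promoters of the family searched, the SOX core ACAAAG occurred in 2, beside 18.7% of all promoters. It occurred 1 time at Irf7 (stretch chr7:141266625-141266654, minus strand) and 2 times, on opposite strands, at the second Irf9 promoter (stretch chr14:55604418-55604465, plus strand). Neither start had a peak, but most of the 11 promoters were at uncovered starts, so no link between this core and the peaks can be read from them. Capitals mark these matches in the Irf7 and Irf9 stretches.
Irf8: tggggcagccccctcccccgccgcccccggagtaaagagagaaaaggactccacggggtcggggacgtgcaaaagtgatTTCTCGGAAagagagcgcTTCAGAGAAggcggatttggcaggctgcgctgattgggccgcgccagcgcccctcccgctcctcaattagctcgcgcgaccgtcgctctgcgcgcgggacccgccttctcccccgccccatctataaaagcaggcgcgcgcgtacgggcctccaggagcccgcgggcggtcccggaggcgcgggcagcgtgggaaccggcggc
Irf7: ctcattgaatctACAAAGagcctggaagac
Irf9, second start: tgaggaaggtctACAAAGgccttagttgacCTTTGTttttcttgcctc

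Around the family, most genes in a list of interferon receptors and general JAK-STAT signalling had a promoter peak. Of 18 genes for interferon receptors, JAK kinases, STAT factors and their regulators, 16 had a promoter peak (88.9%, 65.3 to 98.6%), beside 32.8% of all genes. The list was chosen with earlier results of these data known, so the comparison is a description and not a test. Of all genes with a CpG-rich promoter, 58.0% had a promoter peak, and the promoter composition of this list was not examined. The share of the list also depended on the peak threshold. With the 4365 higher-scoring peaks it was 8 of 18 (44.4%, 21.5 to 69.2%), beside 18.9% of all genes. With peaks of fold 5 or more it was 5 of 18 (27.8%, 9.69 to 53.5%), an interval that includes the 11.9% of all genes, and with peaks of fold 10 or more it was 0 of 18, beside 1.48% of all genes. All receptor chains counted, Ifnar1, Ifnar2, Ifngr1 and Ifngr2, were covered at the TSS, as were the kinase genes Jak1, Jak2 and Tyk2. Among the promoter peaks of this list, the highest scores were at Socs1, encoding a feedback inhibitor of JAK kinases (247 tags, fold 5.07, score 307), and at the receptor gene Ifnar1 (136 tags, fold 6.96, score 296). They were followed by another feedback inhibitor gene, Socs3 (186 tags, fold 5.85, score 253), and by Pias1, an inhibitor of STAT factors (122 tags, fold 4.21, score 215). Stat2, a partner of Irf9, had no promoter peak, and the peak listed for it covered the Pan2 promoter 9998 bp past its end. Stat4 was the other gene of this list without one. The median of the highest fold per marked gene in the list was 4.08, beside 4.54 over all 6875 genes with a promoter peak.

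Genes of the sensors, adaptors and kinases that lead to Irf3, Irf5 and Irf7 had promoter peaks in 7 of 17 cases (41.2%, 18.4 to 67.1%), an interval that includes the 32.8% of all genes. The adaptor gene Traf6 had 67 tags, 6.88-fold enrichment and score 134. Traf3, encoding another adaptor, followed with a fold of 4.12, Mavs, the adaptor of the RNA sensors, with 3.92, and the kinase gene Irak1 with 5.11 in a peak closest to Mir5132. Tbk1 and Ikbke, the kinases that phosphorylate Irf3 and Irf7, had no promoter peak, and neither did Myd88, Irak4, Ticam1, Ddx58, Ifih1, Tlr3, Tlr7 or Tlr9.

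Genes of proteins that bind DNA together with Irf4 and Irf8 had promoter peaks in 7 of 11 cases (63.6%, 30.8 to 89.1%), beside 32.8% of all genes, which this interval includes. Among these promoter peaks, the highest scores were at Tcf3 (E2A proteins, 226 tags, fold 6.2, score 466), Jun (an AP-1 subunit, 153 tags, fold 5.81, score 335), Ikzf1 (Ikaros, 120 tags, fold 7.36, score 300) and Jund (199 tags, fold 4.5, score 240). Ikzf3, which encodes the Ikaros relative Aiolos, had no promoter peak but a stronger one in an intron, 48049 bp from its TSS, with 176 tags (151 to 204), 19.2-fold enrichment and score 752. Spib, encoding an ETS partner, had a weak peak 1856 bp upstream of its TSS with a fold of 2.98. Spi1, which encodes PU.1, had no promoter or gene-body peak. It was listed for a peak further upstream, within the 25 kb listing range, with 54 tags (40.6 to 70.5), 3.41-fold enrichment and score 64.2. The file names Slc39a13 as the closest gene to that peak.

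A promoter peak was present at 8 of 24 interferon-stimulated genes (33.3%, 15.6 to 55.3%), close to the 32.8% of all genes. Isg15, a ubiquitin-like modifier, had the highest score among these promoter peaks (104 tags, fold 5.05, score 207), but this peak was closest to Agrn and lay 2642 bp past the Isg15 TSS. Adar, the RNA-editing enzyme, had 68 tags, 4.39-fold enrichment and score 107. A single peak (64 tags, fold 3.93, score 85.1) covered the facing starts of Psmb9, an immunoproteasome subunit, and Tap1, a peptide transporter. Of the 8 interferon genes themselves, 0 had a promoter peak (upper limit of the exact interval 36.9%), and none was listed within 25 kb of a peak.

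**Figure D4:**
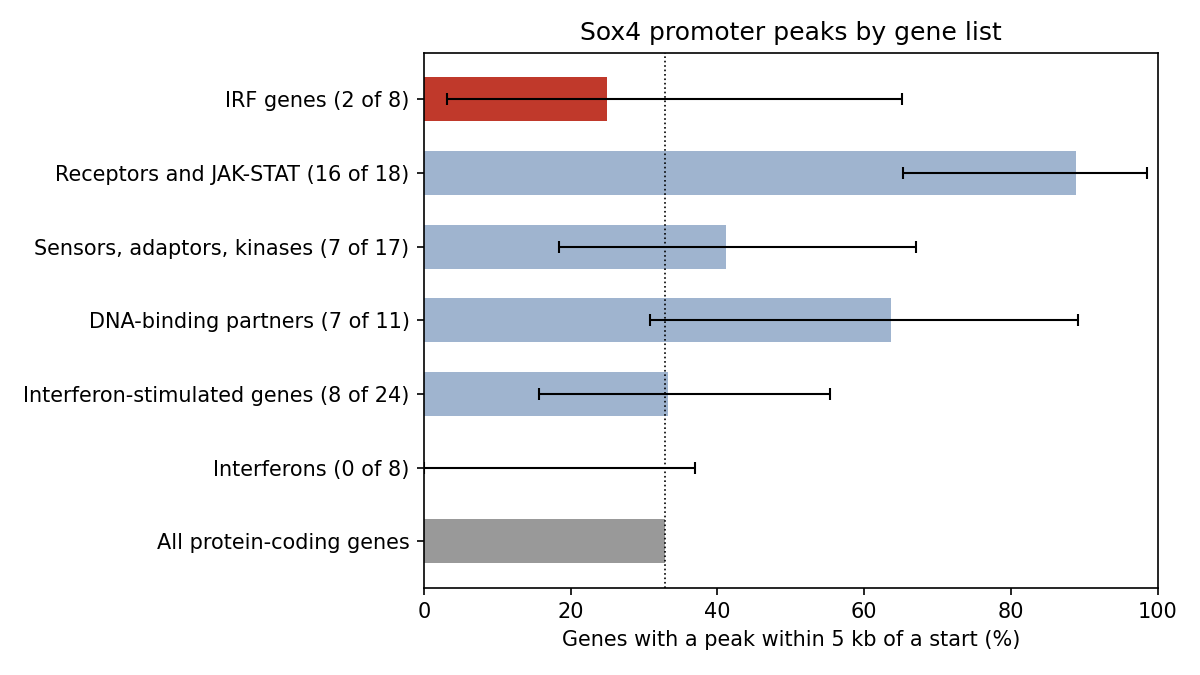
Share of genes with a Sox4 promoter peak (x axis, %) in the IRF genes, in 5 lists of genes around them and in all protein-coding genes (dotted line at 32.8%). Bars are shares and whiskers exact 95% intervals. The receptor and JAK-STAT list, at 88.9%, has its whole interval above the line when all 8730 peaks are used, and the IRF genes, at 25%, have the line within theirs. Members and lists were chosen with earlier results of these data known, so the line is a description and not a test.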

How the data were processed

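Binding was measured by sequencing of 1 Sox4 bioChIP library, and the input library was not used here. Alignment and peak calling involved Bowtie 0.12.8, MACS 1.4.2 and mm9, per the submitters' processing notes, which give no parameters. The sequencing depth, and whether the input served as control, are not given in the sources used here. Values were therefore not scaled to depth. Tags are the deposited raw count of reads in a peak. Fold is the deposited ratio of the peak to the background expected by the caller. The deposited score was taken to be minus 10 log10 of the p-value because its lowest value is 50.03. Distances in the file run from the peak interval, with 0 for overlap. Whether starts count from 0 or 1 was not stated. For summit offsets, each TSS was worked back from the deposited distances, and where several peaks gave a value these agreed within 1 bp.

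The list names 15228 transcripts, of which 14992 matched RefSeq (GRCm38.p6) by accession, 192 by symbol, 32 by an older symbol and 12 not at all. The all-gene share was taken over protein-coding autosomal and X-linked genes that have an NM accession. All list genes matched, but Mx1 and Mx2 are not among those protein-coding genes. Intervals are exact Clopper-Pearson for shares of genes and exact Poisson for tags. They cover counting error only. The counting procedure was tested on simulated peaks that each listed a single gene. Peaks listed for several genes, and matching by symbol, were not part of that check. Python 3.11.15, pandas 2.3.3 and scipy 1.17.1 were used. The genes named are all 8 family members, the genes at and next to their peaks, and up to 4 per list with the highest-scoring promoter peak. Others named from the lists were chosen after their values were seen. Members and lists were chosen with earlier results of these data known. Alternatives were other TSS windows and flanks, closest genes only and stricter peak thresholds. A few genes covered by the naming rule are not reported here.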

Additional observations from a re-analysis of the deposited data

How the results depend on the processing

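The count of 2 IRF genes with a promoter peak was the same with a TSS window of 1 kb, with TSS overlap alone (chosen after seeing the data), with closest genes only and with the 4365 higher-scoring peaks. It was 5 with a window of 20 kb, which adds Irf3, Irf8 and Irf9, 1 with peaks of fold 5 or more and 0 with peaks of fold 10 or more. The count of 3 genes with a gene-body peak was 6 with a flank of 25 kb, beside 48.9% of all genes. It was 1, Irf8, at a fold of 10 or more. With a flank of 12 kb, chosen after seeing the data, Irf3 was added and the count was 4. For gene-body peaks at fold 10 or more, or with the 12 kb flank, no all-gene share is given here. Whether those counts differ from genes at large therefore cannot be read. The all-gene shares by setting given below are for promoter peaks. The 5 surrounding lists together had 38 of 78 genes with a promoter peak, 17 with the higher-scoring peaks, 12 at fold 5 or more and 0 at fold 10 or more. Of these, the receptor and JAK-STAT list gave 16 of 18, then 8, 5 and 0, and 16 with each other window and with closest genes only. The share over all protein-coding genes, 32.8%, was 30.2% and 41.9% with windows of 1 and 20 kb, 27.7% with closest genes only, 18.9% with the higher-scoring peaks, 11.9% at fold 5 or more and 1.48% at fold 10 or more. It was 58.0% for genes with a CpG-rich promoter and 15.1% for the others, a split chosen after seeing the data. The median fold over the family's peaks, 4.01, was 5.18 over the highest-scoring peak per gene, and 4.01 over closest peaks. The first of these keeps only the highest-scoring peak per gene, so it is not a like comparison with the 4.43 of all peaks. The median over closest peaks lies below 4.43. The median of 83 tags was 103.5 and 76 in these settings, and the median score of 122 was 174 and 101. Each of these medians moved less than its order-statistic interval. Fewer peaks, wider windows or other genes enter these settings by construction. No paired analysis was possible because each group holds 1 library.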

Other observations

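The gene-start pattern of Irf1 and Irf2 was shared by the genes of the Irf2-binding protein family. Irf2bp1, Irf2bp2 and Irf2bpl each had a peak over the TSS. The Irf2bp2 peak was the broadest of these and had the most tags and the highest score, at 2909 bp wide with 234 tags (exact Poisson 95% interval 205 to 266), 4.07-fold enrichment and score 381. Per kb of width the 3 start peaks held 79.6 (Irf2bp1) to 80.4 tags (Irf2bp2). A further peak began 3197 bp past the end of Irf2bp2 with 115 tags and a fold of 4.44. The Irf2bpl start peak had 65 tags (50.2 to 82.8) and a fold of 5.81, higher than at the starts of Irf2bp1 and Irf2bp2. Another Irf2bpl peak lay 12319 bp upstream with a fold of 4.52. The Irf2bp1 start peak had 60 tags (45.8 to 77.2) and a fold of 4.05.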
